A study of Mus musculus with 16 samples.

Results

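The genes described are 31 listed genes of cholesterol and fatty acid synthesis and of sterol efflux, taken by symbol from a table of 49671 genes. All 31 were found in the table and 30 had enough counts to be tested. Fads2, the delta-6 fatty acid desaturase, was the member left out, with 60 counts over all libraries. RNA was measured by the Smart-seq2 method in natural killer (NK) cells, sorted as live CD45+ CD3- NKp46+ DX5+ cells. All mice were of the FVB/N background with the genotype Cdh1F/F;Trp53F/F;Foxp3GFP-DTR, in which Foxp3-expressing cells bear a diphtheria toxin (DT) receptor. All bore an orthotopically transplanted KEP mammary tumour of 100 mm2. The mice were given 25 ug DT or PBS at T = 0 and T = 7; the sources used here give neither the unit of T nor the age of the mice. NK cells came from lymph nodes (LN, axillary and tumour-draining) or from lungs, which gives 4 groups (LN PBS, LN DT, lung PBS and lung DT) with n = 4 libraries in each. Only the lungs are described as digested with enzymes, so that tissue and digestion cannot be told apart. The design states biological replicates but ties no library to an animal, so the p-values measure the spread between libraries.

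Sterol synthesis builds cholesterol from acetyl-CoA through mevalonate and squalene. SREBP transcription factors, encoded by Srebf1 and Srebf2, drive these genes and those of fatty acid synthesis when sterols are low, and INSIG proteins hold the SREBPs back in the endoplasmic reticulum when sterols are plentiful. In the opposite state oxysterols activate LXR, which raises the cholesterol exporters ABCA1 and ABCG1. In lymphocytes these pathways are known for supplying membranes during growth and division.

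The 3 members whose start regions are printed here each illustrate a result below: Insig1 and Abca1 differed most in opposite directions between lung and LN, and Acat2 had the smallest p in the lung comparison of DT with PBS. Each sequence is the strand of the gene, 5′ to 3′, up to the RefSeq start site or to the first base of a GENCODE exon, from the RefSeq promoter table (build GRCm38.p6). The stretches are chr5:28071162-28071362 on the plus strand for Insig1, chr4:53159896-53160145 on the minus strand for Abca1 and chr17:12960748-12960975 on the minus strand for Acat2. Capitals mark the E-box, whose letters are CACGTG. They also mark the CCAAT box, named by its letters, and the GC box, for which GGGCGG was searched. The core of the sterol regulatory element was searched as CACCCCAC. Both strands were searched, so a match on the other strand appears as its complement read backwards.
Insig1: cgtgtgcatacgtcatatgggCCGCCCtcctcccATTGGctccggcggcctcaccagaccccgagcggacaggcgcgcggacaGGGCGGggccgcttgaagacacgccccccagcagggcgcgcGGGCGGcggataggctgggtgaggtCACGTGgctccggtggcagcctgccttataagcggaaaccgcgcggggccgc
Abca1: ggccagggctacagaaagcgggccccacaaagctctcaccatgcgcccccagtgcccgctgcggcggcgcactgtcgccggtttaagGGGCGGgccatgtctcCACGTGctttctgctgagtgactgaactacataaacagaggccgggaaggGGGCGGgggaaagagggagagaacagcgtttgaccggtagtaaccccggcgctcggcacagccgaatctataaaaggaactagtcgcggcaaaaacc
Acat2: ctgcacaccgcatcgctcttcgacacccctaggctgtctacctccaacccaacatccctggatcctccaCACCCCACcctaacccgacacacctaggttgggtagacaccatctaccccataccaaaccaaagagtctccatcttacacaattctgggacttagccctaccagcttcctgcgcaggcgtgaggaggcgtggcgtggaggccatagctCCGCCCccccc
An E-box stood in the windows of Insig1 and Abca1 but not of Acat2, and the sterol regulatory core in that of Acat2 alone of these 3.

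The promoter table held 23 of the 31 members; Sqle, Fdps, Fdft1, Scd1, Scd2, Stard4, Fads1 and Abcg1 were not matched. In the 250 bases before the start site, 6 of the 23 held an E-box (Abca1, Dhcr7, Elovl5, Hsd17b7, Insig1 and Sc5d), against 6.86% of 27025 genes with a promoter of that length. The sterol regulatory core stood in 2 (Acat2 and Hmgcs1) against 2.98%, a CCAAT box in 17 against 37.5%, and a GC box in 19 against 35.4%. The longer sterol regulatory element, which contains the core, stood in 0 members and 0.0814% of genes. The DR4 repeat, a form of LXR site, was searched only in its perfect form, which stood in 0 members and 0.0148% of genes. Sites that differ from that form by any letter were not searched for. The 0 matches therefore do not show that Abca1 or any other member lacks an LXR site. These are matches of letters and say nothing of binding.

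Total counts per library ran from 3929560 to 10744934. The 8 NK cell markers summed to between 19467 and 58908 CPM (read counts set to a common library size with TMM factors), with all 8 of 8 detected in each group. Of the 2 that encode antigens of the sort, Ncr1 (NKp46) ran from 2457 to 7917 CPM and Itga2 (DX5) from 62.9 to 160 CPM. Gzma, which is no part of the gate, gave 36965 of the 58908 CPM in LN DT replicate 1. LN DT replicate 1 was the lowest of its group for 14 of the 30 tested members, and lung DT replicate 1 was the lowest for 13 and the highest for 12. Lung PBS replicate 4 was the lowest for 15 and LN DT replicate 4 the highest for 16. The share of counts from mitochondrial genes was 3.11 to 4.40% in lung DT and 0.951 to 2.57% in lung PBS. It was 4.93, 4.18, 4.01 and 1.24% in LN DT replicates 1 to 4 and 1.05 to 1.68% in LN PBS. In RNA from a sorted bulk, fewer cells of a type and less RNA per cell cannot be told apart.

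Compared per kilobase of exon, the members spanned more than 2 orders of magnitude. Ebp, which shifts a double bond in the sterol ring, had the highest mean level over the 16 libraries at 48.6 CPM per kb. Acly, which makes cytosolic acetyl-CoA from citrate, followed at 40.1, the fatty acid elongase Elovl5 at 25.4 and the exporter Abcg1 at 22.5 CPM per kb. Insig1 (13.9), Nsdhl (12.2), Acat2 (12.1), Sc5d (11) and Mvd (10.0) came next on the same scale. Fads2 (0.152), Fdps (0.573), Acaca (0.802) and Sqle (0.866), the squalene epoxidase, were lowest. Of their 50-base windows, 26.2% in Fdps, 30.4% in Acaca and 39.1% in Acat2 also occur in other genes. Reads there may have been split or dropped, so the levels of these genes may be too low. The 2 SREBP genes lay in the lower middle, Srebf1 at 6.44 and Srebf2 at 2.65 CPM per kb. The spread between replicates, as the biological coefficient of variation, had a median of 0.459 over the 30 members and 0.520 over all tested genes. It ran from 0.286 for Ebp to 1.49 for Scd1, with Sqle (1.05) and Fads1 (0.960) next to Scd1, so that differences in these 3 were the hardest to detect.

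**Figure D1:**
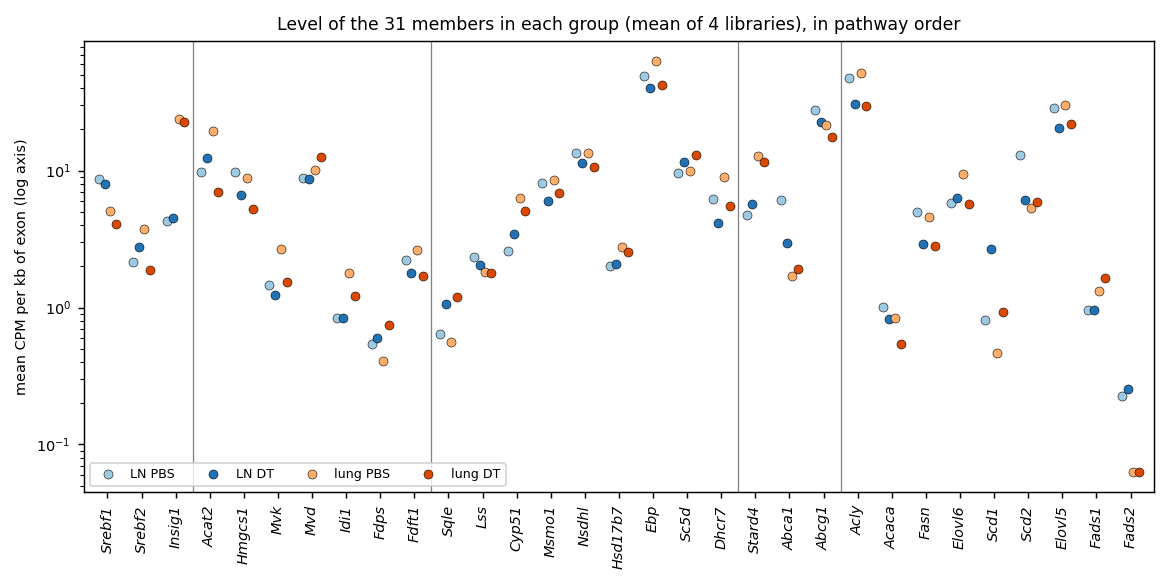
Mean level of each of the 31 members in the 4 groups (points, n = 4 libraries each), in CPM per kilobase of exon on a log axis, in pathway order with lines between the stages. Ebp and Acly are the highest on average and Fads2 the lowest, and the lung points of Insig1 stand above its LN points.

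Between the tissues, lung against LN in mice given PBS showed the clearest differences among the members. Of the 30 tested, 2 were higher in lung (Insig1 and Stard4) and 1 was lower (Abca1) at an adjusted p under 0.05 in edgeR, against 3.61% of all 13940 tested genes (2.70% higher and 0.904% lower). The 18 members above 0 and 12 below it had a median log2 difference of 0.10, against -0.01 for all tested genes. With total counts alone in place of TMM, the split over all genes moved from 377 higher and 126 lower to 298 and 229, the median of all genes to -0.18 and that of the members to -0.07. The 3 member calls and their directions held under that scaling. Libraries did not overlap for 7 members higher in lung (Srebf2, Insig1, Acat2, Mvk, Ebp, Stard4 and Elovl6) and 2 lower (Abca1 and Scd2), against 9.25% and 9.91% of all tested genes.

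Insig1 (ENSMUSG00000045294, chr5:28071363-28078662) showed the largest difference. Its level was 15.9, 7.63, 14.7 and 14.6 CPM in LN PBS replicates 1 to 4. In lung PBS it was 59.6, 55.2, 113 and 69.9 CPM. All 4 lung libraries lay above all 4 LN libraries, and the lowest in lung was over 3 times the highest in LN. The means were 13.2 ± 3.76 CPM in LN and 74.3 ± 26.3 CPM in lung (SD, n = 4), a log2 difference of 2.49 (SE 0.35, 95% interval 1.75 to 3.23, edgeR adjusted p = 0.000432), or 5.62-fold. After DT the gap was of like size: LN DT had 7.71, 14.9, 13.4 and 20 CPM and lung DT 54.1, 76.8, 81.4 and 69.6 CPM. The groups again did not overlap, and the log2 difference was 2.33 (SE 0.35, interval 1.59 to 3.06, adjusted p = 0.000693). Insig1 kept its call under all 26 alternatives in PBS (2.25 to 2.63) and all 28 in DT (2.13 to 2.54).

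Stard4, on chromosome 18 (ENSMUSG00000024378), encodes a carrier that moves cholesterol between membranes. It had 27.7, 31.5, 19.6 and 26.8 CPM in LN PBS and 62.9, 65.2, 91.3 and 67.7 CPM in lung PBS. Every lung library lay above every LN library. The log2 difference was 1.44 (SE 0.30, interval 0.82 to 2.07, adjusted p = 0.00927), or 2.72-fold, and it was called under all 26 alternatives. After DT the values were 36.7, 24.3, 23.9 and 42.9 CPM in LN and 84.6, 70.1, 64.8 and 39.3 CPM in lung, with lung DT replicate 4 inside the LN range. The log2 difference was 1.02 (SE 0.29, adjusted p = 0.0453). That call was lost in 21 of 28 alternatives; among single libraries, it held only without LN DT replicate 4 or lung DT replicate 4. With the replicate number as a block the difference was 1.01 (adjusted p = 0.0709), or 1.04 in a blocked fit of the 8 DT libraries alone (adjusted p = 0.151).

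Abca1 (ENSMUSG00000015243, chr4:53030787-53159895), which loads cholesterol onto apolipoprotein, went the other way. Its level was 90.4, 59.0, 50.2 and 54.1 CPM in LN PBS and 14.3, 23.6, 18.7 and 13.9 CPM in lung PBS. All LN libraries were higher, and the groups were far apart. The means were 63.4 ± 18.4 and 17.6 ± 4.54 CPM (SD, n = 4), a log2 difference of -1.85 (SE 0.41, interval -2.71 to -0.99, adjusted p = 0.0147). The call was lost without LN PBS replicate 1 (-1.63, adjusted p = 0.0641), lung PBS replicate 1 (-1.76, adjusted p = 0.0547) or lung PBS replicate 4 (-1.75, adjusted p = 0.0535). After DT the difference was -0.63 (SE 0.40, adjusted p = 0.411), with lung DT at 32.1, 26.7, 13.8 and 7.2 CPM and LN DT at 23.1, 26.3, 39.0 and 34.8 CPM. The ranges overlapped, and the change of the tissue gap itself, 1.23 (SE 0.56), had an adjusted p of 1.00.

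Abcg1, the exporter to high-density lipoprotein, did not pass between tissues. It had 169, 209, 221 and 217 CPM in LN PBS and 152, 192, 174 and 113 CPM in lung PBS. These ranges overlapped, with a log2 difference of -0.37 (SE 0.39, interval -1.20 to 0.45, adjusted p = 0.721). With DT it stood at 263, 91.9, 105 and 201 CPM in LN and at 233, 143, 87.8 and 54.1 CPM in lung, so that replicate 1 was the highest in both DT groups.

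**Figure D2:**
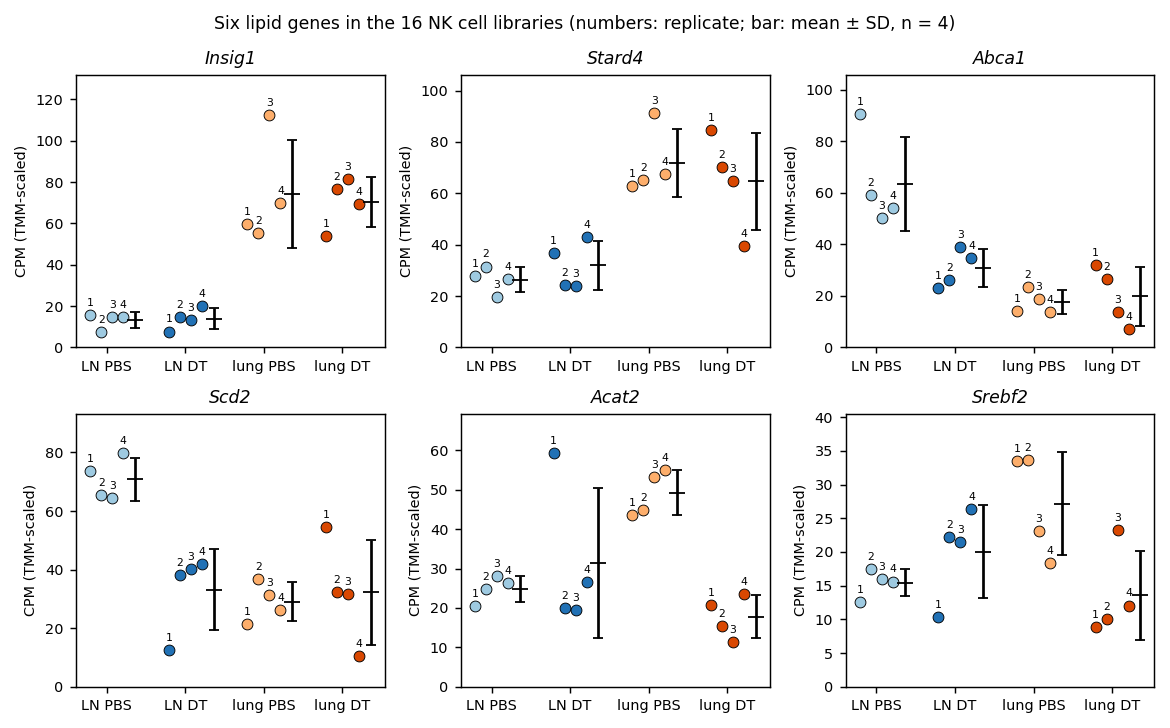
Level of 6 members (Insig1, Stard4, Abca1, Scd2, Acat2 and Srebf2) in each of the 16 libraries in CPM, with the replicate number at each point and the group mean ± SD (n = 4) as a bar. Insig1 is between 54.1 and 113 CPM in lung and at most 20 CPM in LN, while Abca1 is highest in LN PBS.

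Among the regulators, Srebf2, whose protein mainly drives sterol genes, had 12.6, 17.4, 16 and 15.6 CPM in LN PBS and 33.5, 33.6, 23.1 and 18.4 CPM in lung PBS. The groups did not overlap but the difference did not pass, at 0.81 on the log2 scale (SE 0.40, adjusted p = 0.326). Srebf1, whose protein mainly drives fatty acid genes, had 44.4, 48.8, 40.4 and 61.3 CPM in LN PBS and 32.3, 41.4, 24.8 and 16.1 CPM in lung PBS. Its ranges met at 1 library and the log2 difference was -0.77 (SE 0.53, adjusted p = 0.529). Insig1 was the 1 called gene of these 3.

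None of the 7 genes from acetyl-CoA to squalene passed between tissues in PBS. Acat2, the cytosolic thiolase that joins 2 acetyl-CoA, came nearest. It had 20.4, 24.7, 28.0 and 26.2 CPM in LN PBS and 43.7, 45.0, 53.2 and 55.1 CPM in lung PBS. All lung libraries were higher, with a log2 difference of 0.99 (SE 0.36, adjusted p = 0.150), which passed without both DT libraries numbered 1 (1.03, adjusted p = 0.0209), as did 5 members in all against 9.47% of 14380 genes tested. Of the Acat2 sequence, 39.1% of 50-base windows also occur in Acat3, so counts of the pair may have been split or dropped. The other 6 (Hmgcs1, Mvk, Mvd, Idi1, Fdps and Fdft1) lay between -0.43 and 1.09 on the log2 scale. The smallest adjusted p among all 7 was that of Acat2. Shared sequence was also high for Idi1 (25.3%), Fdps (26.2%) and Fdft1 (26.5%), the last with Ctsb, which overlaps it on the opposite strand. It was higher still for the fatty acid gene Acaca (30.4%, mostly with Gm5182).

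Of the 9 genes from squalene to cholesterol 0 passed between tissues, and their log2 differences in PBS ran from -0.37 to 1.30 with a median of 0.08. Cyp51, the lanosterol demethylase, was at the upper end with 11.4 ± 7.75 CPM in LN and 28.1 ± 9.74 CPM in lung (SD, n = 4, adjusted p = 0.328). Sqle had few counts: 0.105, 0.727, 12.4 and 1.02 CPM in LN PBS and 3.87, 3.61, 4.71 and 0.248 CPM in lung PBS. A single LN library was above all the rest, and the interval of its log2 difference reached from -2.59 to 2.20. Ebp was steady, at 113 ± 4.87 and 146 ± 10.1 CPM (SD, n = 4), and although its libraries did not overlap the difference was 0.36 (SE 0.27, adjusted p = 0.564).

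Of the 8 tested fatty acid genes 0 passed in PBS, with a median log2 difference of -0.02. Scd2, a stearoyl-CoA desaturase, had 73.5, 65.6, 64.3 and 79.8 CPM in LN PBS and 21.5, 36.9, 31.4 and 26.2 CPM in lung PBS. All LN libraries were higher, with a log2 difference of -1.29 (SE 0.42, interval -2.18 to -0.40, adjusted p = 0.102). It passed in DESeq2 (-1.29, adjusted p = 0.0414) and, in edgeR, without both DT libraries numbered 1 (-1.25, adjusted p = 0.0141). Elovl6, which elongates palmitate, lay the other way at 37.6 ± 7.94 and 60.9 ± 8.04 CPM (SD, n = 4), a log2 difference of 0.70 (SE 0.29, adjusted p = 0.221). Fasn, the fatty acid synthase, had 48.3, 71.2, 43.0 and 54.4 CPM in LN PBS and 41.2, 64.7, 55.6 and 39.5 CPM in lung PBS, ranges that nearly coincide (-0.11, SE 0.49). Scd1 had 0, 0.606, 10.5 and 4.64 CPM in LN PBS and 1.09, 6.38, 1.69 and 0 CPM in lung PBS, too scattered to order the tissues.

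After DT, 2 members were higher in lung than in LN (Insig1 and Stard4) and 0 lower, against 6.75% of all tested genes. With the replicate number as a block 1 member was left, since Stard4 no longer passed (adjusted p = 0.0709). The median of the 30 was 0.02, against -0.04 for all, with 15 above 0 and 15 below. Libraries did not overlap for 1 member (Insig1), against 5.57% of all tested genes higher. Scd2, whose PBS libraries did not overlap, now ran from 12.5 to 41.9 CPM in LN and from 10.6 to 54.7 CPM in lung.

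**Figure D3:**
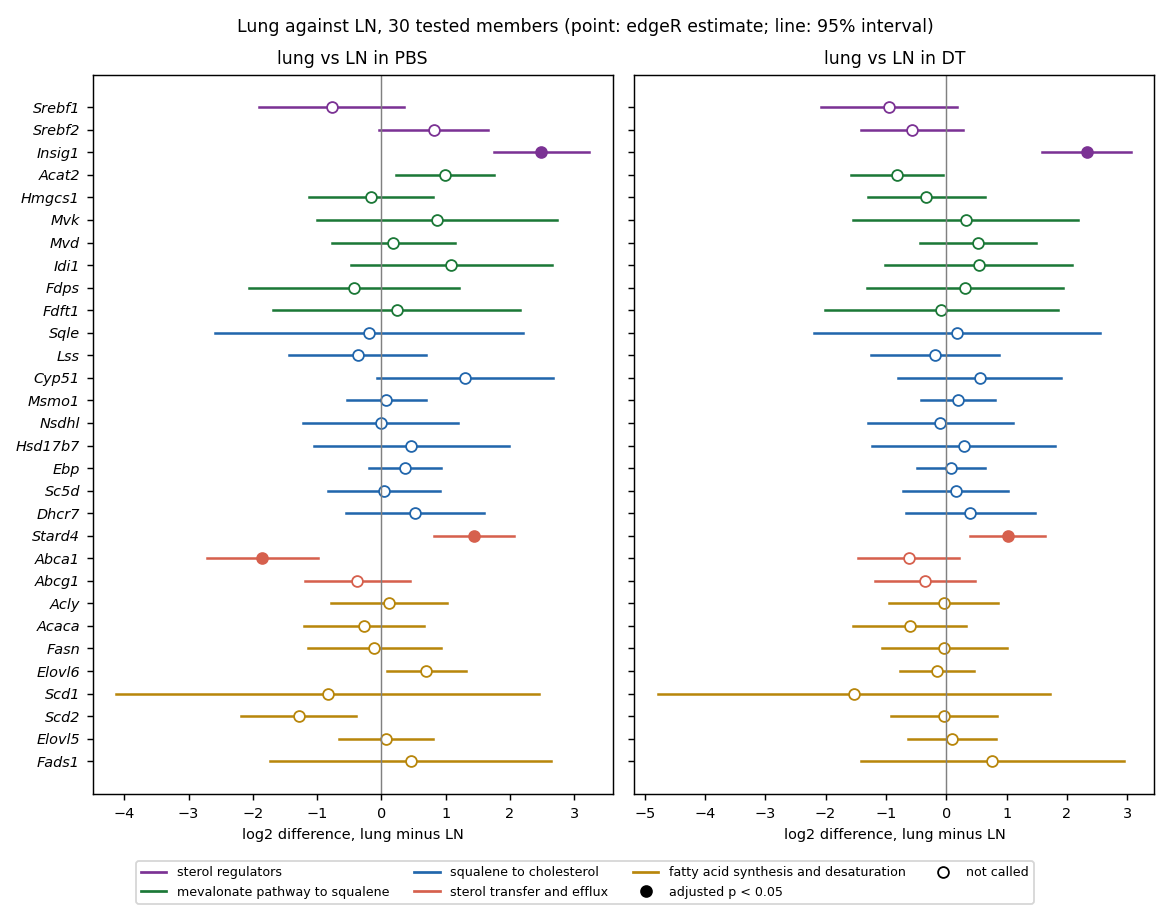
Log2 difference of lung minus LN for the 30 tested members with its 95% interval, in mice given PBS and in mice given DT. Filled points pass an adjusted p of 0.05: Insig1, Stard4 and Abca1 in PBS, Insig1 and Stard4 in DT, where Stard4 does not pass with a replicate block (adjusted p = 0.0709).

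Several markers of other cells differed between the tissues beside these genes. The 7 T cell markers summed to 356 to 434 CPM in LN PBS and 37.7 to 76.0 CPM in lung PBS. Cd3d (107 to 147 CPM) and Cd3g (181 to 227 CPM) made up most of the LN sums. Of the 6 tested markers, 4 were lower in lung and 2 higher. Cd4 had 1.09 to 8.55 CPM in LN PBS and 0 to 8.33 CPM in lung PBS. Cd8a had 0 to 2.48 and 0.794 to 2.78 CPM. Cd8b1 was at 0 in both lung groups and had 0, 0, 2.35 and 0.226 CPM in LN PBS. The 11 macrophage and monocyte markers summed to 45.2 to 373 CPM in LN PBS and 285 to 3677 CPM in lung PBS. All 11 were detected in each group, and 10 were higher in lung PBS and 1 lower. The lower one, Marco, had 0, 6.42, 0.496 and 7.92 CPM in LN PBS and at most 0.278 CPM in lung PBS. Lyz2 gave 1788 of the 3677 CPM in lung PBS replicate 2, and 3191 and 2702 CPM in lung DT replicates 2 and 3. Insig1 was lowest in the lung PBS library with the most macrophage RNA (replicate 2) and highest in that with the least (replicate 3). In lung DT Insig1 was highest in replicates 3 and 2 (81.4 and 76.8 CPM), the 2 libraries of that group with the most macrophage RNA (3412 and 3945 CPM). It was lowest in replicate 1 (54.1 CPM), with 1316 CPM of macrophage RNA. Replicate 4, with the least macrophage RNA (137 CPM), had Insig1 at 69.6 CPM. Without the 3 lung libraries richest in macrophage RNA, a choice made after seeing the data, the log2 difference of Insig1 after DT was 2.13 and that of Stard4 0.94 (adjusted p = 0.169). Neutrophil markers summed to 0.485 to 12.4 CPM in LN PBS, with Retnlg and Ly6g at 0, and to 16.5 to 103 CPM in lung PBS. The 8 markers of alveolar epithelium summed to 70.0 to 101 CPM in LN PBS and 68.5 to 101 CPM in lung PBS, with Sftpd at 0 in every group. Napsa alone gave 62.0 to 69.5 CPM of the LN sums and 49.8 to 84.4 CPM of the lung sums. Sftpc had 0, 1.70, 0 and 0.226 CPM in LN PBS and 0.199, 2.78, 8.82 and 4.10 CPM in lung PBS. Of the 4 tested markers, 0 were called between tissues in PBS and 1 was called higher in lung after DT (edgeR adjusted p = 0.0365). The part of T cell, neutrophil and macrophage RNA in the member differences was not tested beyond these values.

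The comparison named in the design is DT against PBS within a tissue. In LN 0 of the 30 members passed in edgeR, against 0.0646% of all tested genes, and 2 had an unadjusted p under 0.05, both lower (3.52% of all genes were lower at that level). DESeq2 also called 0 members, out of 326 genes over the table. The members' median log2 difference was -0.16, with 13 above 0 and 17 below, against 0.08 for all tested genes. Libraries did not overlap for 2 members, both lower with DT, against 3.42% of all tested genes.

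These 2 were also the members whose lung PBS libraries lay wholly below LN PBS. Abca1 had 90.4, 59.0, 50.2 and 54.1 CPM with PBS and 23.1, 26.3, 39.0 and 34.8 CPM with DT, a log2 difference of -1.04 (SE 0.40, interval -1.88 to -0.20, adjusted p = 0.310). Scd2 had 73.5, 65.6, 64.3 and 79.8 CPM with PBS and 12.5, 38.2, 40.2 and 41.9 CPM with DT, at -1.09 (SE 0.42, interval -1.97 to -0.21, adjusted p = 0.316). In both genes every DT library lay below every PBS library, and LN DT replicate 1 was the lowest. Both kept their sign in all 26 alternatives and passed in 0 of them. The LN PBS libraries also enter the tissue comparison, so the 2 patterns share their control samples.

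In lung 0 of 30 members passed in edgeR, against 0.108% of all tested genes, and 4 had an unadjusted p under 0.05, all lower (7.06% of all genes). These were Acat2, Elovl6, Srebf2 and Ebp. The median of the 30 was -0.33, with 8 above 0 and 22 below, against 0.09 for all tested genes, of which 54.5% lay above 0. Once the mitochondrial share of counts entered as a covariate, the members' median turned to 0.17 in lung and 0.10 in LN, and that of all genes was 0.02 and 0.00 (-0.00375). The direction of the median therefore rests on how that share is treated, and the 2 cannot be told apart in lung, where all DT libraries had the higher share.

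Acat2 was the member with the smallest p. It had 43.7, 45.0, 53.2 and 55.1 CPM in lung PBS and 20.8, 15.4, 11.4 and 23.4 CPM in lung DT. Every DT library lay below every PBS library, the 1 such member in lung (4.53% of all tested genes were lower without overlap). The means were 49.2 ± 5.75 and 17.8 ± 5.42 CPM (SD, n = 4), a log2 difference of -1.47 (SE 0.37, interval -2.24 to -0.70, adjusted p = 0.109). It passed in DESeq2 (-1.42, adjusted p = 0.0120), without LN DT replicate 1 (-1.52, adjusted p = 0.0494) and without both DT libraries numbered 1 (-1.62, adjusted p = 0.0151). Its sign held in all 26 alternatives, with adjusted p from 0.0120 to 0.741. In LN it had 20.4, 24.7, 28.0 and 26.2 CPM with PBS and 59.5, 20.1, 19.5 and 26.5 CPM with DT, where replicate 1 stood far above the rest. The difference of the responses, lung minus LN, was -1.81 (SE 0.51, adjusted p = 0.785).

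The other lung genes near the top were lower by less. Srebf2 had 8.90, 10.0, 23.3 and 12.1 CPM in lung DT, overlapping the PBS range at 1 library, with a log2 difference of -0.999 (SE 0.41, adjusted p = 0.276). Elovl6 stood at 36.7 ± 14 CPM against 60.9 ± 8.04 (SD, n = 4), at -0.73 (SE 0.29, adjusted p = 0.269). Ebp stood at 97.9 ± 34.8 CPM against 146 ± 10.1, at -0.57 (SE 0.27, adjusted p = 0.332). Without both DT libraries numbered 1, which stand apart from the rest of the series, 3 members passed in lung, against 3.30% of 14380 genes tested: Acat2, Ebp (-0.90, adjusted p = 0.0374) and Nsdhl (-1.64, adjusted p = 0.0495). Lung DT replicate 1 held 82.4 CPM of Nsdhl, a decarboxylating step of sterol synthesis, and replicates 2 to 4 held 7.39, 10.2 and 21 CPM.

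Insig1 did not move with DT in a way these libraries could show. The log2 difference was 0.09 in LN (interval -0.62 to 0.79) and -0.08 in lung (interval -0.77 to 0.62). Stard4 was at 0.28 (interval -0.34 to 0.89) and -0.15 (interval -0.76 to 0.46). The intervals stay within 1 log2 unit of 0 but do not show equal levels. Srebf1 had 11.3, 51.6, 52.2 and 63.5 CPM in LN DT and 4.30, 38.9, 22.6 and 26.7 CPM in lung DT, with replicate 1 the lowest in both, and differed from PBS by -0.12 (SE 0.53) and -0.30 (SE 0.53).

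Fasn showed the same low replicate 1, at 6.51, 39.9, 30.6 and 49.9 CPM in LN DT and 14.5, 17.8, 59.4 and 32.6 CPM in lung DT. Its log2 differences from PBS were -0.77 (SE 0.49, adjusted p = 0.574) and -0.69 (SE 0.49, adjusted p = 0.531). Sqle and Scd1 had the highest estimates in lung but did not pass. Sqle stood at 9.94, 4.49, 7.10 and 2.09 CPM in LN DT and 13.8, 5.76, 6.51 and 0.524 CPM in lung DT. Scd1 had 3.94, 22.8, 22.6 and 2.97 CPM in LN DT and 0, 13.6, 4.43 and 0 CPM in lung DT. For both genes the groups overlapped and the intervals spanned more than 4 log2 units. Fads1, another desaturase of low level, differed by 0.31 in lung (SE 1.03).

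**Figure D4:**
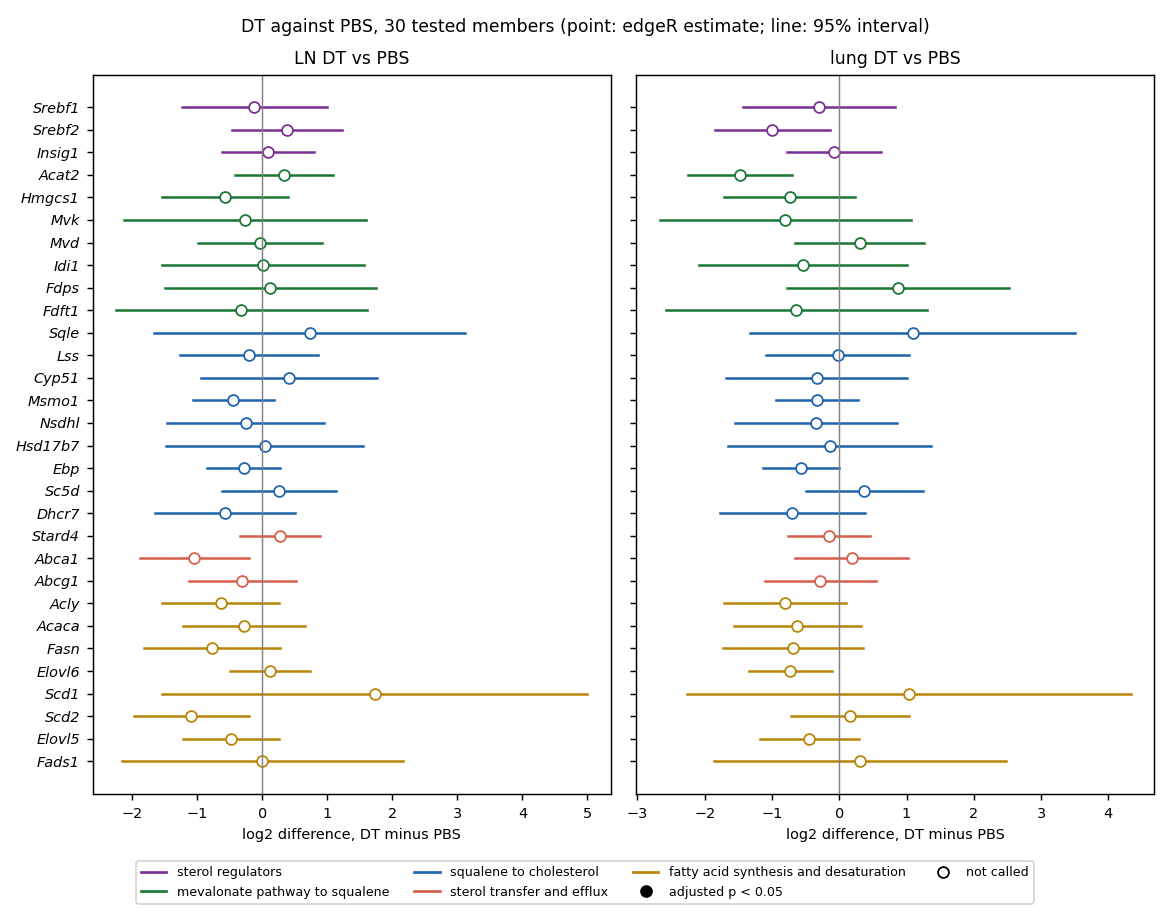
Log2 difference of DT minus PBS for the 30 tested members with its 95% interval, in LN and in lung. No point passes an adjusted p of 0.05, and in lung 22 of 30 points lie below 0.

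Averaged over both tissues, 0 of 30 members passed in edgeR, against 3.90% of all tested genes, and 3 had an unadjusted p under 0.05, all lower (9.39% of all genes). DESeq2 called 0 members. The median of the 30 was -0.30, with 9 above 0 and 21 below, against 0.09 for all, and it turned to 0.12 with the mitochondrial covariate. The 3 were Acly (-0.72, SE 0.30, adjusted p = 0.165), Ebp (-0.43, SE 0.19, adjusted p = 0.185) and Acat2 (-0.57, SE 0.26, adjusted p = 0.192). Acly had 58.9, 115, 132 and 341 CPM in LN DT and 99.0, 169.7, 118 and 242 CPM in lung DT, with replicate 4 the highest in both. Without LN DT replicate 4 it passed (-1.06, adjusted p = 0.0198), and with that covariate its sign turned (0.22). Without lung DT replicate 1, Ebp (-0.61, adjusted p = 0.0452) and Nsdhl (-0.96, adjusted p = 0.0499) passed. Without both DT libraries numbered 1, Acat2 (-0.90, adjusted p = 0.0174) and Ebp (-0.69, adjusted p = 0.0173) passed, 2 members against 9.55% of genes.

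Whether DT acted differently in the 2 tissues was tested as an interaction. In edgeR 0 of 30 members passed, against 0.00717% of all tested genes, and DESeq2 called 0 too. At an unadjusted p under 0.05 there were 4: Acat2 and Srebf2 below 0, Abca1 and Scd2 above it (4.20% of all genes). Srebf2 was at -1.38 (SE 0.57) and Scd2 at 1.25 (SE 0.59), each with an adjusted p of 1.00. Srebf2 was higher in lung than in LN on average with PBS and lower with DT (means 27.1 against 15.4 CPM, then 13.6 against 20.05 CPM). Scd2 went from 29.0 against 70.8 CPM with PBS to 32.3 against 33.2 CPM with DT.

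**Figure D5:**
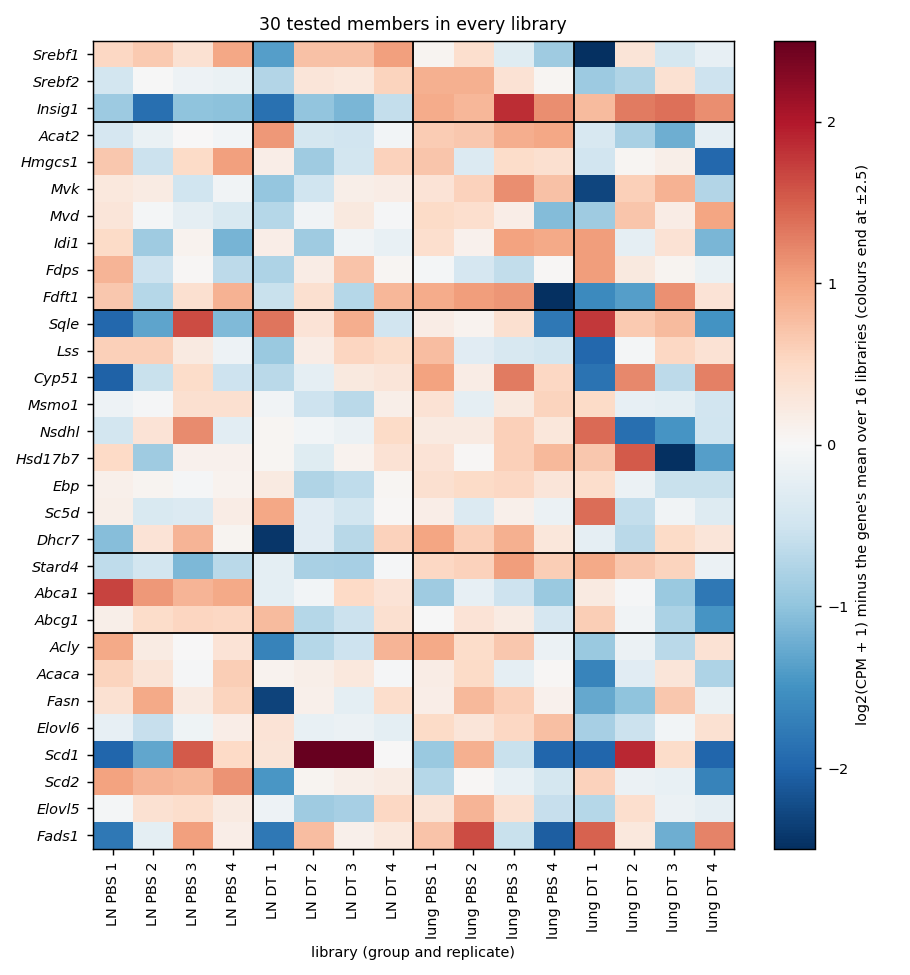
Each tested member (rows, in pathway order with lines between stages) in each of the 16 libraries (columns, with lines between groups), as log2(CPM + 1) minus the gene's mean over all libraries. Insig1 is high across lung, and Stard4 is high in lung except in lung DT replicate 4 (39.3 CPM, inside the LN DT range). Abca1 and Scd2 are high in LN PBS, and the DT libraries numbered 1 differ from the rest of their groups in many rows.

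Other changes accompanied DT in the same libraries. The 15 division genes summed to 369 ± 104 CPM in LN DT against 121 ± 46.1 in LN PBS, and to 749 ± 530.4 against 167 ± 43.5 CPM in lung (SD, n = 4; exact permutation p = 0.0286 in each, the smallest that 4 against 4 can give; adjusted p = 0.137 over 48 tests). In lung DT the division sums were 1542, 512, 520 and 424 CPM in replicates 1 to 4. The T cell markers summed there to 426, 59.7, 75.3 and 60.6 CPM, against 37.7 to 76.0 CPM in lung PBS. In LN they summed to 267 to 483 CPM with DT and 356 to 434 CPM with PBS. In edgeR 0 members were called higher in either tissue, among 9 genes of the whole table called higher in LN and 8 in lung, and of the division genes 0 were called in LN and 2 in lung. The 7 B cell markers summed to 94.8 to 853 CPM in LN DT, highest in replicates 2 and 3, and 59.4 to 122 CPM in LN PBS, all 7 detected. Dendritic cell markers were highest in the same replicates (160 and 316 CPM, against 14.7 to 36.3 CPM in LN PBS). Plasma cell markers summed to 453 to 727 CPM in LN DT and 288 to 351 CPM in LN PBS without overlap (exact permutation p = 0.0286, adjusted p = 0.137 over 48 tests). Xbp1 gave 239 to 315 CPM of the LN PBS sums and 374 of the 483 CPM in LN DT replicate 4. Jchain was at most 0.124 CPM in LN PBS and stood at 229, 275, 258 and 39.7 CPM in LN DT. Other plasma cell markers did not rise in all of these libraries. Mzb1 had 9.42, 67.5, 53.5 and 6.60 CPM in LN DT and 2.18 to 8.71 CPM in LN PBS. Derl3 had 0, 4.49, 2.89 and 0.440 CPM in LN DT and at most 0.905 CPM in LN PBS. Sdc1 was at most 1.68 CPM in LN DT and 2.97 CPM in LN PBS, and Tnfrsf17 at most 0.481 CPM in LN DT. Without LN DT replicates 2 and 3, a choice made after seeing the data, the log2 difference of Scd2 in LN was -1.37. Of the 8 NK cell markers, 6 were lower with DT in lung and 2 higher, with a median log2 difference of -0.52. Lung libraries did not overlap for 2 of them, both lower. Klrb1c had 325 to 525 CPM with DT and 802 to 1258 CPM with PBS. Eomes had 106 to 153 and 155 to 257 CPM. In LN 6 of the 8 were higher and 2 lower, with a median of 0.07. Over both tissues 1 was called lower in edgeR (adjusted p = 0.0323). The part of NK cell RNA, dividing cells, T cells, B cells, plasma cells, dendritic cells and the mitochondrial share in the member differences was not tested further.

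Among neighbouring genes of the pathways, 4 passed in at least 1 comparison. Acat1 and Tecr passed over both tissues, where 3.90% of all tested genes did. Elovl7 and Cd36 passed between tissues in PBS (3.61% of all), and Elovl7 also after DT (6.75% of all). Whether the neighbouring genes passed more often than these shares was not tested. Of 6 genes of SREBP processing, all tested, 0 passed in edgeR in any comparison, and at an unadjusted p under 0.05 there was 1 of 6 in LN with DT (11.8% of all tested genes at that level, in either direction), 1 between tissues after DT (20.9% of all), 1 in the interaction (4.20% of all) and 0 in the other comparisons. Mbtps2, the site-2 protease that frees the SREBPs, came nearest, at 12.5 ± 6.96 CPM in lung DT and 32.2 ± 9.02 CPM in LN DT (SD, n = 4; log2 difference -1.36, SE 0.43, adjusted p = 0.0681). Of 6 other sterol genes 4 were tested, and Acat1, the mitochondrial thiolase, was lower with DT over both tissues (-0.94, SE 0.18, adjusted p = 0.0137). That call was lost in 3 of 26 alternatives, among them those without the 3 lung libraries rich in macrophage RNA (-0.80, adjusted p = 0.0623) and without the 2 LN libraries rich in B cell RNA (-0.82, adjusted p = 0.118). It had 152, 159, 185 and 184 CPM in LN PBS and 125, 90.1, 86.3 and 135 CPM in LN DT, and in lung 138, 152, 179.7 and 140.1 CPM with PBS and 95.8, 54.9, 46.1 and 62.2 CPM with DT. The groups did not overlap in either tissue, as for 1.26% of all tested genes.

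Of 14 other fatty acid genes 12 were tested. Tecr, the last reductase of very-long-chain elongation, was lower with DT over both tissues (-0.72, SE 0.16, adjusted p = 0.0242), from 331 ± 53.1 to 177 ± 35.8 CPM in LN and from 231 ± 26.9 to 159 ± 31.1 CPM in lung (SD, n = 4). With the mitochondrial share as a covariate, 0 genes of the whole table passed in that comparison, so the calls of Acat1 and Tecr did not hold there. Tecr also lost its call without any one of LN PBS replicates 3 and 4, LN DT replicates 2 and 3 and lung PBS replicates 1 and 3 (adjusted p from 0.0553 to 0.0657). The fit without the 2 LN libraries rich in B cell RNA lost it as well (-0.70, adjusted p = 0.145). Elovl7, an elongase, was higher in lung than in LN, in PBS (1.20, SE 0.28, adjusted p = 0.0212; 97.5 ± 6.40 against 42.6 ± 8.15 CPM) and in DT (1.02, SE 0.28, adjusted p = 0.0337). The call in PBS was lost without any one of LN PBS replicates 1, 3 and 4 and lung PBS replicates 1 and 2 (adjusted p from 0.0510 to 0.0883). Total counts alone (1.03, adjusted p = 0.0729) and no filter on low counts (1.19, adjusted p = 0.0554) lost it too. The call in DT was lost in 13 of 28 alternatives, among them a blocked fit of the 8 DT libraries alone (0.99, adjusted p = 0.0947) and the fit without the 3 lung libraries richest in macrophage RNA (0.70, adjusted p = 0.234).

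The 15 genes of LXR partners, sterol storage and lysosomal export had 14 tested and 0 passing in edgeR in any comparison. At an unadjusted p under 0.05, in either direction, there were 2 of 14 in LN with DT (11.8% of all tested genes). With DT there were 4 in lung (14.7% of all) and 5 over both tissues (23.1% of all). Between tissues there were 2 in PBS (16.9% of all) and 5 after DT (20.9% of all), and 0 in the interaction (4.20% of all). Lipa, the lysosomal acid lipase, was at -0.93 in LN with DT (SE 0.31, adjusted p = 0.252), and Nceh1, a cholesteryl ester hydrolase, at -1.0 in lung (SE 0.31, adjusted p = 0.177). Of 13 genes of fatty acid oxidation and uptake 12 were tested, and Cd36, a fatty acid scavenger receptor, passed between tissues in PBS (5.92, SE 1.55, adjusted p = 0.0417), a call lost in 15 of 26 alternatives, 10 of them fits without 1 library. It had 0, 0, 0.124 and 1.58 CPM in LN PBS and 15.8, 47.5, 14.4 and 30.7 CPM in lung PBS. Its highest values, 47.5 in lung PBS replicate 2 and 128 and 179.7 in lung DT replicates 2 and 3, fell in the 3 libraries with the most macrophage RNA (3677, 3945 and 3412 CPM). The part of macrophage RNA in Cd36 was not tested.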

How the data were processed

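The deposited table holds raw counts per gene, which the authors made, per the submitters' processing notes, with HISAT2, HTSeq and GRCm38; the sources used here do not give versions or strand use. All 16 columns were used. Counts were filtered with filterByExpr by group (minimum count 10, minimum total 15), which left 13940 of 49671 genes. They were scaled by TMM and fitted with the quasi-likelihood F test of edgeR 4.0.16 (R 4.3.3, robust=TRUE) with 1 mean for each of the 4 groups (12 residual degrees of freedom). A gene is called at a two-sided p under 0.05 after Benjamini-Hochberg adjustment across the 13940. Levels per kb use exon lengths of GENCODE M21. Sums of markers were compared by exact permutation tests. The script was tested on simulated data.

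The members and gene lists were chosen with earlier results of these data known. Values per library are given for members called, for those without overlap between groups (at most 4 per comparison) and for 9 fixed genes; of the wider lists, the genes called and those of smallest p are named. Acly and Nsdhl were added after their values were seen. Members not found in the promoter table have no sequence shown; proteins are not used here.

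Alternatives were median-ratio factors, total counts, 2 other filters, DESeq2 1.42.0, the mitochondrial share as a covariate, a replicate block, leaving out each library or both DT libraries numbered 1, and, chosen after seeing the data, leaving out libraries rich in macrophage or B cell RNA and fits of the 8 DT libraries. Replicate numbers are shared between groups without a label saying what they share. Same-numbered LN DT and lung DT libraries deviated together (correlations 0.41, 0.19, 0.23 and 0.18), so for lung against LN in DT the blocked value is given where it changes a call. The highest correlation of LN DT replicates 1 to 4 with another number in lung DT was -0.12, 0.23, 0.18 and 0.015. LN DT replicate 2 thus matched another number better than its own. No pair of libraries agreed within sampling noise (smallest chi-square per degree of freedom 10.5).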

Additional observations from a re-analysis of the deposited data

Results flagged for a closer look

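A member's library was picked out where its gap to the nearest of the other 3 in its group, over the group's range, passed Dixon's critical value for 4 samples. This held in 12 of 124 groups of 4. Chance gives about 1 in 20 for normally distributed values, which low counts are not. The Fads2 groups among the 12 had counts in 1 library only, which fixes the ratio at 1. No excess over chance can therefore be read from the count. Among sterol genes, Insig1 was low in LN PBS replicate 2 at 7.63 CPM (others 14.6 to 15.9). Fdft1, squalene synthase, was low in lung PBS replicate 4 at 0.124 CPM (others 13.8 to 15.6). Sqle was high in LN PBS replicate 3 at 12.4 CPM (others 0.105 to 1.02). Lss, lanosterol synthase, was high in lung PBS replicate 1 at 34.0 CPM (others 13.9 to 15.8). Nsdhl was high in lung PBS replicate 3 at 46.3 CPM (others 35.2 to 36.7). Sc5d, a sterol desaturase, was high in lung DT replicate 1 at 133 CPM (others 32.4 to 46.9). Stard4 was high in lung PBS replicate 3 at 91.3 CPM (others 62.9 to 67.7).

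Among fatty acid genes, Elovl6 was high in LN DT replicate 1 at 53.3 CPM (others 35.3 to 38.0), and Scd2 was low in the same library at 12.5 CPM (others 38.2 to 41.9). Fads2 was seen in 1 library of each of 3 groups: LN PBS replicate 3 at 2.97 CPM, lung PBS replicate 2 at 0.833 CPM and lung DT replicate 3 at 0.831 CPM, with 0 in the others.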

How the results depend on the processing

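Over 37 genes (30 members and 7 named genes of the wider lists) 5822 log2 differences were computed under the alternatives. Of these 5337 kept direction and side of the threshold, 70 lost a call and 38 gained one. The sign changed in 377, all of them called neither as reported nor under the alternative, and in 0 that were called. Counts here are of all genes unless members are named, in the order LN DT against PBS, lung DT against PBS, both tissues, interaction, lung against LN in PBS and in DT, against 9, 15, 544, 1, 503 and 941. DESeq2 gave 326, 456, 1591, 19, 1177 and 1733, and 1 member in lung DT against PBS. The mitochondrial covariate gave 0, 1 and 0 for the first 3. Without both DT libraries numbered 1 they were 24, 474 and 1373, with 1362 for the tissues in PBS, and members 3 in lung, 2 in both tissues, 5 between tissues in PBS and 1 in DT. No filter gave 23 in LN, and 1 member between tissues in DT. Without the 2 LN libraries rich in B cell RNA the counts were 0, 1, 20, 0 and, for tissues in DT, 154, with 1 member. Without the 3 lung libraries rich in macrophage RNA they were 37 in lung, 209 in both tissues, 8 for the interaction and 626 for tissues in DT, with 1 member.

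With the replicate block the interaction had 0 genes and the tissues in DT 1 member (889 genes); both tissues had 486 (244 higher, 242 lower, against 344 and 200). In the 8 DT libraries alone the block gave 515 genes and 1 member, and no block 322 and 1. Outside LN DT with lung DT, same-numbered libraries did not all correlate over 0.1. Leaving out 1 library gave 0 to 122, 1 to 129, 89 to 1334, 0 to 3, 268 to 992 and 471 to 1554 genes. Members ranged from 0 to 0 in LN and the interaction, 0 to 1 in lung, 0 to 2 in both tissues, 2 to 3 between tissues in PBS and 1 to 2 in DT. The highest counts for DT came without LN DT replicate 4 (122 in LN, 1334 in both) or lung DT replicate 4 (129). Those for tissues came without lung DT replicate 1. For the changes not made by fewer samples or genes the cause was not tested. Depth limits Fads2 (60 counts over all libraries), Fdps (308), Idi1 (511) and Sqle (572) most.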
